A study of Mus musculus with 8 samples.

Results

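Ubiquitin-conjugating enzymes, or E2s, stand in the middle of the ubiquitin pathway. An activating enzyme (E1) charges the E2 with ubiquitin, and a ligase (E3) then brings the charged E2 to the protein to be marked. The E2 largely sets which kind of ubiquitin chain is built, and some E2s carry related small proteins such as NEDD8 or ISG15 in place of ubiquitin. In endoplasmic reticulum (ER) associated degradation, the Sel1L-Hrd1 ligase complex uses E2s at the ER membrane to mark misfolded secretory proteins for the proteasome, and the exocrine pancreas is among the tissues that make most secretory protein.

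The E2 genes described here are those whose platform symbol begins with Ube2, without Ube2j1 and Ube2g2, the E2s best known from ER-associated degradation, and without pseudogene symbols. They number 29 of the 18820 genes that had a feature (a probe set) naming 1 gene. These 29 genes had 44 such features, 9 of them had more than 1, and the feature with the highest mean over the 8 arrays stands for the gene. Ube2c and Ube2e1 had only features that also name another gene, and Ube2m was not analysed here. Ube2cbp is included by its symbol but encodes a protein that binds Ube2c, not an E2.

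Whole pancreas of mice labelled as C57BL/6J was profiled on whole-transcript arrays, 4 of wild type and 4 of Sel1L knockout animals, and the comparison asks how loss of Sel1L alters expression in this tissue. The labels call the knockout inducible and spell the gene Sel1L1. Both groups were homozygous for a Sel1l allele with exon 6 between loxP sites, made in C57BL/6N embryonic stem cells and freed of its selection cassette by a cross to FLPe mice of C57BL/6J background. The knockout group also carried a transgene for Cre fused to the estrogen receptor under an actin promoter, which the wild type littermates lacked, so deletion of Sel1l and presence of Cre cannot be told apart. Mice of both groups, 8 to 20 weeks old, received tamoxifen at 5 mg/ml, 5 µl per g body weight, on 3 consecutive days. An actin promoter is not specific to pancreas, and other tissues were not analysed here. The labels do not say that each sample is a separate animal, so p-values reflect only how far these samples vary, and that variation may be technical. The pancreas was perfused with RNAlater before RNA was extracted.

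Values are log2 levels as deposited, differences are knockout minus wild type, and errors of differences are limma's moderated standard errors. A gene was called when its Benjamini-Hochberg adjusted p over all 18820 genes was under 0.05. Sel1l itself was lower by -0.76 (SE 0.0788, limma adjusted p = 0.000196) in the knockout arrays, where it lay between 11.45 and 11.70, against 12.37 to 12.39 in wild type. Array medians lay between 4.94 and 5.05. The 14 measured acinar markers, such as the carboxypeptidase gene Cpa1, had a mean of 13.04 to 13.20 on the wild type arrays and 12.76 to 12.87 on the knockout arrays, near the top of the range. Of these markers 9 fell (64.3%, against 12.6% of all genes) and 0 rose. Of 9 endothelial markers 6 rose (66.7%, against 16.1% of all genes) and 0 fell, with list means of 7.09 to 7.21 in wild type and 7.34 to 7.59 in knockout. Acinar falls numbered 4, with 1 rise, after quantile normalization, 12 after median centring and 9 after cyclic loess. Over all genes falls were then 12.8%, 21.1% and 11.4%. Endothelial rises numbered 1, 5 and 1 under these rescalings, where 9.64%, 12.0% and 10.6% of all genes rose. They numbered 2 without Sel1L knockout replicate 3, and 3 without either Sel1L knockout replicate 4 or wild type replicate 1, where 11.7% to 14.1% of all genes rose. Of 12 macrophage and 10 stellate markers limma called 0, against 28.7% of all genes, and 0 and 2 had an unadjusted p under 0.05. Without wild type replicate 2, 2 of each fell, against 10.8% of all genes. The part of these shifts in the E2 differences was not tested, and in a bulk tissue fewer cells of a type and less RNA per cell cannot be told apart. Wild type replicate 2 stood apart, with a macrophage marker mean of 5.95 against 7.44 to 8.11 on the other wild type arrays.

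The E2 genes moved little. Of the 29, 4 rose and 3 fell, so 24.1% were called, against 28.7% of all genes tested. Rises made up 13.8% of the E2 genes (16.1% of all genes) and falls 10.3% (12.6% of all genes), shares near the background in each direction for the deposited values. After quantile normalization 2 rose and 7 fell, the falls being 24.1% against 12.8% of all genes. After median centring 1 rose and 7 fell (24.1% against 21.1%), and after cyclic loess 1 rose and 9 fell (31.0% against 11.4%). Rises were then 6.90%, 3.45% and 3.45% of the E2 genes against 9.64%, 12.0% and 10.6% of all genes. Over all genes rises made up 56.0% of calls as deposited and 42.9%, 36.3% and 48.1% under these 3 rescalings. Without Sel1L knockout replicate 4, 2 E2 genes rose (6.90%, against 12.8% of all genes). Without Sel1L knockout replicate 1 or 2, 1 fell (3.45%, against 9.56% and 8.63% of all genes). Ube2b, Ube2l3, Ube2d2a and Ube2d1 rose, and Ube2f, Ube2ql1 and Ube2k fell. No E2 gene changed by 1 or more on the log2 scale. Only 451 of all 18820 genes did, so this says little about 29 genes. The median absolute difference was 0.172 over the E2 genes, against 0.218 over all genes. The E2 differences ran from -0.51 to 0.45, with 14 positive and 15 negative. As deposited their median was -0.04, against -0.04 over all genes. When only genes above the median gene mean were fitted, the median of the 25 E2 genes there was 0.0049. Over all 9410 such genes it was 0.13, so the E2 median lay below that of the brighter genes. The E2 median was -0.13 against -0.05 over all genes after quantile normalization, -0.12 against -0.11 after median centring and -0.11 against -0.02 after cyclic loess. The E2 mean lay between 7.62 and 7.67 on the wild type arrays and between 7.58 and 7.63 on the knockout arrays.

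Replicates of these genes had a median SD of 0.0905 in wild type and 0.0725 in knockout. This spread was not compared with that of all genes, and its part in the separation of the groups was not tested. All 4 knockout values lay above all 4 wild type values for 6 E2 genes, or 20.7%, against 17.6% of all genes. The reverse held for 9, or 31.0%, against 14.6% of all genes. Among these 15 were all 7 called genes and 8 that did not pass the adjusted threshold. Of the 22 genes that were not called, 20 had a 95% interval of the difference lying between -0.5 and 0.5. The exceptions were Ube2l6 and Ube2cbp, whose intervals reached below -0.5.

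**Figure D1:**
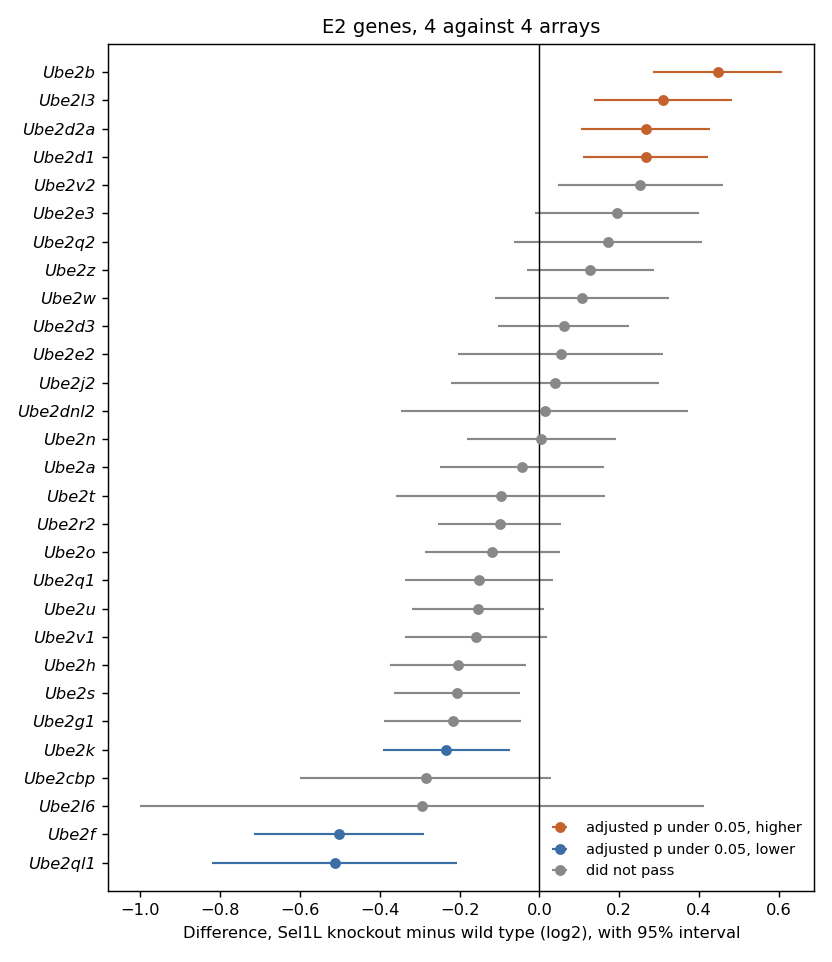
Difference of each E2 gene between 4 Sel1L knockout and 4 wild type arrays (log2), with its moderated 95% interval; orange marks genes called higher, blue genes called lower and grey genes that did not pass. The differences run from -0.51 (Ube2ql1) to 0.45 (Ube2b), and the widest interval is that of Ube2l6.

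Most E2 genes lay above the array medians in pancreas. On all 8 arrays 25 of the 29 lay above the array's median over all features, while Ube2ql1, Ube2t, Ube2dnl2 and Ube2u lay below it on all 8, so sizes for those 4 are rough. That median includes features with no symbol, and the median over the genes tested was higher, at 5.35 to 5.62. The share of all genes tested that lay above the array median was not counted, so 25 of 29 has no background here. Lying above the array median does not by itself show that a gene was detected. Wild type means ran from 2.64 for Ube2dnl2 to 11.88 for Ube2d3. These are probe set levels, not corrected for length or probe response, and they do not order the genes by RNA amount.

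Ube2b, the largest rise, encodes one of the RAD6 proteins, which mark histones and the replication clamp PCNA with ubiquitin together with ligases such as Rad18, Rnf20 and Rnf40. Its near-identical partner Ube2a did not pass. The promoters of the pair are shown because one gene of the pair was called and the other was not. The difference between them had the smallest p that the arrays allow, which did not pass adjustment, as given with the other pairs. Both stretches run from 110 bases before to 10 bases after a RefSeq start (GRCm38.p6), 5′ to 3′ on the gene's strand. Capitals mark E-boxes (CACGTG), the cyclic AMP response element (TGACGTCA) and the 5 letters CCACG of the ER stress element core, each searched on both strands.

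Ube2b, chr11:52000777-52000896, minus strand: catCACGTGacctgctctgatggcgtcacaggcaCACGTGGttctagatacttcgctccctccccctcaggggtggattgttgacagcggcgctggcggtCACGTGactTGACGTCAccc

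Ube2a, chrX:36874185-36874304, plus strand: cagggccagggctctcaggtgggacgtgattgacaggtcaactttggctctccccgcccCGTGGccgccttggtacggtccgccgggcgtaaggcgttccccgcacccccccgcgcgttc

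The Ube2b stretch held 3 E-boxes, the middle one overlapping CCACG on the other strand, and 1 cyclic AMP response element; the Ube2a stretch held 1 CCACG and neither of the other motifs. The table lists another start for Ube2b, whose stretch held none of the 3 motifs, and the arrays do not tell which start was used. RefSeq's table gave 33 windows of 300 bases for 24 of the E2 genes. Of these, 3 (9.09%) held an E-box, against 7.15% of all 32851 windows and 8.31% of those of the genes tested. A cyclic AMP response element lay in 2 (6.06%, those of Ube2b and Ube2h), against 1.79% and 2.41%. CCACG lay in 16 (48.5%), against 32.8% and 39.6%. The XBP1 element core TGACGTGG was in 0 of the 33 windows, against 0.676% and 0.783%. The ATF4 element TGATGNAA was in 0, against 3.97% and 3.08%. These matches are letters in a window and were not tested as sites.

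On the wild type arrays Ube2b measured 8.75, 8.80, 8.85 and 8.78, and on the knockout arrays 9.28, 9.14, 9.31 and 9.23. Every knockout value lay above every wild type value, with a gap wider than the spread within either group. The mean went from 8.80 ± 0.0409 to 9.24 ± 0.0725 (SD, n = 4 each), a difference of 0.45 (SE 0.0724, limma adjusted p = 0.00208) or 1.36-fold. Ube2b was called in all 17 other settings tried, at differences of 0.33 to 0.48. Ube2a lay at 6.99, 6.99, 7.05 and 7.22 in wild type and at 6.96, 7.03, 6.90 and 7.19 in knockout. These groups overlapped (difference -0.04, limma adjusted p = 0.741). Ube2t, the E2 of the Fanconi anaemia ligase Fancl, differed by -0.10 (limma adjusted p = 0.545) at a level below the array medians. Among the ligases of these E2s, Rad18 (0.23), Rnf20 (-0.09), Rnf40 (0.02), Ubr1 (0.15), Ubr2 (-0.12) and Fancl (0.21) did not pass.

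Ube2l3 rose. It encodes an E2 that hands ubiquitin to ligases with a catalytic cysteine of their own (the HECT and RBR types). Its values were 9.91, 9.83, 10.06 and 9.98 in wild type and 10.27, 10.19, 10.28 and 10.29 in knockout, without overlap. The difference was 0.31 (SE 0.0772, limma adjusted p = 0.0157). All 5 features annotated to Ube2l3 rose when each feature was tested by itself, by 0.31 to 0.41. Such features can share sequence with copies of the gene and are no replicates of each other. The call was lost after cyclic loess (limma adjusted p = 0.0588) and after median centring (limma adjusted p = 0.0502). Huwe1, a large HECT ligase, rose by 0.77 (SE 0.0682, limma adjusted p = 9.24e-05), and so did the HECT ligase Herc6, given below. The HECT ligases Nedd4 (-0.06) and Itch (0.08) and the RBR ligases Rnf31 (0.17) and Rbck1 (-0.02) did not pass. Of the RBR ligases that use Ube2l3, Arih2 differed by 0.23, just missing the threshold, and Arih1 by -0.17 (limma adjusted p = 0.157).

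The broadly acting E2s start chains with many ligases. Of 7 measured (Ube2d1, Ube2d2a, Ube2d3, Ube2dnl2, Ube2e2, Ube2e3 and Ube2w) 2 rose, against 16.1% of all genes, and 0 fell, with a median of 0.11; so few genes show no more than their own values. Ube2d2a measured 9.44, 9.35, 9.36 and 9.37 in wild type and 9.60, 9.58, 9.70 and 9.72 in knockout (difference 0.27, SE 0.0723, limma adjusted p = 0.0223). Ube2d1 measured 8.18, 8.25, 8.26 and 8.19 in wild type and 8.48, 8.47, 8.42 and 8.56 in knockout (difference 0.27, SE 0.0702, limma adjusted p = 0.0199). Neither gene's groups overlapped. Both calls were lost after quantile normalization, median centring and cyclic loess and without Sel1L knockout replicate 4 (limma adjusted p = 0.0568 for Ube2d1 and 0.0619 for Ube2d2a), and that of Ube2d2a also without Sel1L knockout replicate 3 (limma adjusted p = 0.0666). Ube2d3, whose protein is nearly the same as these, overlapped between groups (11.79 to 11.95 in wild type, 11.86 to 11.98 in knockout; difference 0.06, limma adjusted p = 0.547). Its other 2 features differed by 0.0038 and 0.14 and were not called. Probes for genes this alike can share signal. Ube2e3 differed by 0.19 (limma adjusted p = 0.138), Ube2w, which attaches ubiquitin to the amino terminus of proteins, by 0.11, Ube2e2 by 0.05 and Ube2dnl2 by 0.01. Under those 3 rescalings the positive sign of Ube2e2 turned in each, that of Ube2d3 after quantile normalization and median centring, that of Ube2w after quantile normalization and cyclic loess, and that of Ube2dnl2 after median centring.

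**Figure D2:**
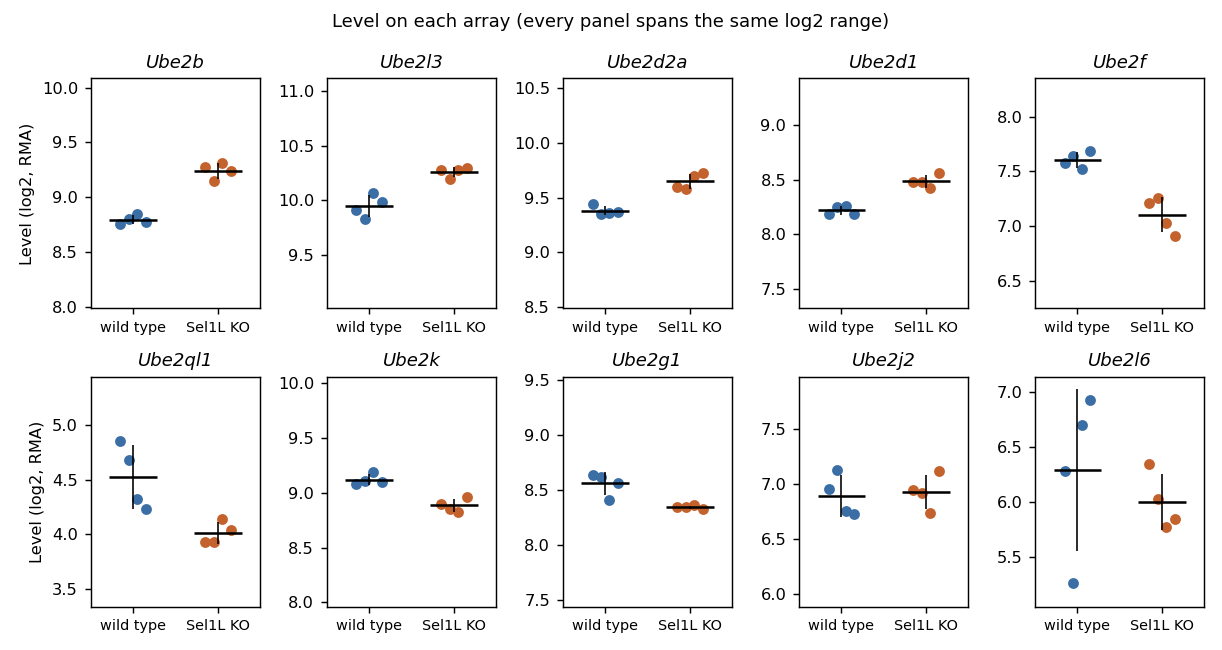
Log2 level on each array for the 7 called E2 genes and for Ube2g1, Ube2j2 and Ube2l6; points are arrays, the horizontal bar is the group mean and the vertical bar 1 SD. The 4 wild type and 4 knockout points do not overlap for the 7 called genes or Ube2g1; for Ube2l6 wild type replicate 2 lies lowest, at 5.26.

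Ube2g1, Ube2k and Ube2r2 encode E2s that build the chain recognised by the proteasome. Of these, 1 was called, Ube2k, which fell (12.6% of all genes fell). In each of the 3 the highest knockout array was under the lowest wild type array, as in 14.6% of all genes. Ube2k, which extends such chains and can do so without a ligase, measured 9.08, 9.11, 9.19 and 9.10 in wild type and 8.90, 8.86, 8.83 and 8.96 in knockout. Its difference was -0.23 (SE 0.0712, limma adjusted p = 0.0356), and the call was lost without any one of wild type replicates 2, 3 and 4 or Sel1L knockout replicates 1, 2 and 3, with differences of -0.26 to -0.21 over all arrays left out. Ube2g1, a relative of the ER-associated Ube2g2, measured 8.64, 8.62, 8.41 and 8.57 in wild type and 8.34, 8.34, 8.36 and 8.33 in knockout, 4 values within 0.04 of each other. Its difference of -0.22 (SE 0.0767) missed the threshold (limma adjusted p = 0.0587) and passed after each of the 3 rescalings, at -0.35 to -0.29. Ube2r2, which works with SCF ligases, differed by -0.10 (limma adjusted p = 0.290).

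At the ER membrane itself, Ube2j2, a tail-anchored E2 that faces the cytosol, showed no separation. It measured 6.96, 7.13, 6.75 and 6.73 in wild type and 6.95, 6.92, 6.74 and 7.12 in knockout. The difference was 0.04, with a 95% interval of -0.22 to 0.30 and a limma adjusted p of 0.817; after each of the 3 rescalings the sign turned. A feature that names Ube2j2 together with Gm5801 differed by 0.04 as well. For the 2 E2s of ER-associated degradation left out of the count, Ube2j1 differed by -0.10 (limma adjusted p = 0.280) and Ube2g2 by 0.23 (limma adjusted p = 0.0645). On these arrays the ligase gene Syvn1, which encodes Hrd1, rose by 0.95 (SE 0.13, limma adjusted p = 0.000875).

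Ube2f gave the firmest fall. It encodes an E2 for NEDD8, a ubiquitin-like protein that activates cullin ligases, and works with the RING protein Rnf7 (Rbx2). It measured 7.57, 7.64, 7.52 and 7.69 in wild type and 7.21, 7.26, 7.03 and 6.91 in knockout. The groups were apart, with knockout lower, and the mean differed by -0.50, or 1.42-fold (SE 0.0951, limma adjusted p = 0.00456). It was called in all 17 other settings, at -0.66 to -0.44. The brighter of 2 features that name Ube2f together with Gm5434 went from 10.32 ± 0.155 to 9.81 ± 0.0583 (SD, n = 4 each), also a difference of -0.50.

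Rnf7, the ligase partner of Ube2f, rose by 0.60 (SE 0.106, limma adjusted p = 0.00336), from 7.08, 7.36, 7.54 and 7.44 in wild type to 7.95, 7.85, 8.07 and 7.94 in knockout. Cul2, a cullin, rose by 0.64 (SE 0.0891, limma adjusted p = 0.000951), and both calls held in all 17 other settings. Nae1, a subunit of the NEDD8 E1, rose by 0.33 (limma adjusted p = 0.0411), Nedd8 by 0.32 (limma adjusted p = 0.0494) and Dcun1d3, a regulator of cullin neddylation, by 0.26 (limma adjusted p = 0.0348); these last 3 calls were lost after each of the 3 rescalings and without wild type replicate 1, 2 or 3 or Sel1L knockout replicate 2, 3 or 4, and those of Nedd8 and Dcun1d3 also without Sel1L knockout replicate 1. Cul5, the cullin that Ube2f and Rnf7 serve, differed by 0.18 (limma adjusted p = 0.103). Of the 17 measured cullin, RING and anaphase-promoting complex genes, 3 rose (17.6%, against 16.1% of all genes) and 0 fell (against 12.6%). The share called was thus 17.6%, against 28.7% of all genes. Their median was 0.18, and after each of the 3 rescalings 2 rose and 1 fell. Over all genes 9.64% to 12.0% rose and 11.4% to 21.1% fell under these rescalings.

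Ube2ql1, a member of the UBE2Q class, measured 4.85, 4.68, 4.33 and 4.24 in wild type and 3.93, 3.93, 4.14 and 4.04 in knockout. The groups did not overlap, and the difference was -0.51 (SE 0.137, limma adjusted p = 0.0207), but the wild type values were widely spread and all 8 lay below the array medians. The call was lost without Sel1L knockout replicate 1 or 2 (highest limma adjusted p = 0.0563). In the same class Ube2q1 differed by -0.15 (limma adjusted p = 0.192) and Ube2q2 by 0.17 (limma adjusted p = 0.242).

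Among other E2s for ubiquitin-like proteins, Ube2l6 carries ISG15 and is induced by interferon. It measured 6.28, 5.26, 6.70 and 6.93 in wild type and 6.35, 6.02, 5.77 and 5.85 in knockout. Wild type replicate 2 held the lowest value of all 8 arrays and the other 3 wild type arrays overlapped with knockout replicate 1 only. The difference was -0.29 (SE 0.315, limma adjusted p = 0.497); without wild type replicate 2 it was -0.64 (limma adjusted p = 0.0296). On that array the interferon-stimulated list also had its lowest mean, 4.81 against 5.20 to 5.45 on the other wild type arrays and 5.41 to 5.83 on the knockout arrays, and the macrophage markers were low as given above; the part of these in Ube2l6 was not tested. Of the 23 interferon-stimulated genes measured, 6 rose (26.1%, against 16.1% of all genes) and 0 fell. Without Sel1L knockout replicate 2, 3 rose, where 12.3% of all genes rose. Without wild type replicate 3, 9 rose, where 15.2% of all genes rose. Among the 6 was Herc6, a ligase for ISG15 in mice (0.62, SE 0.144, limma adjusted p = 0.0119). Isg15 itself (-0.02) and its E1 gene Uba7 (0.21, limma adjusted p = 0.0726) did not pass. Ube2z, which takes its charge from the E1 Uba6, differed by 0.13 (limma adjusted p = 0.200), and Uba6 by 0.29 (limma adjusted p = 0.138).

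The E2s of signalling chains were not called. Ube2n encodes the catalytic partner, and Ube2v1 and Ube2v2 encode partner proteins that lack the catalytic cysteine. Ube2n lay at 7.27, 7.21, 7.42 and 7.41 in wild type and at 7.25, 7.31, 7.31 and 7.46 in knockout (difference 0.0049, limma adjusted p = 0.969; 95% interval -0.18 to 0.19), and its sign turned under several settings. Ube2v2 was higher by 0.25 (limma adjusted p = 0.0664) with separated groups, from 7.76 to 7.91 in wild type and from 7.92 to 8.29 in knockout. Taken by itself its dimmest feature rose by 0.49 (limma adjusted p = 0.00248 over features), and the mean of its 3 features was called. Ube2v1 was lower by -0.16 (limma adjusted p = 0.157), also with separated groups. Traf6 (0.12) and Rnf8 (-0.18), ligases that use this E2, did not pass, whereas Birc2 and Birc3, ligases of death receptor signalling, rose by 0.97 (SE 0.11) and 0.73 (SE 0.118), with limma adjusted p-values of 0.000311 and 0.00199. Xiap, on the same list of ligases, differed by 0.32 and did not pass (limma adjusted p = 0.198).

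Ube2s, which extends chains on substrates of the anaphase-promoting complex, was lower by -0.21 (limma adjusted p = 0.0521) with separated groups, 8.15 to 8.26 in wild type and 7.93 to 8.03 in knockout. Its other feature differed by -0.12. Of 20 proliferation genes, 0 rose and 1 fell (5%, against 12.6% of all genes), with a median of -0.09. Without wild type replicate 2, 3 fell, where 10.8% of all genes fell, and the median of the list was -0.29. Without wild type replicate 4, 0 fell, where 12.3% of all genes fell, and the median of the list was 0.08. Without Sel1L knockout replicate 1, 3 or 4, 0 fell, where 8.06% to 9.56% of all genes fell. Ube2h, the E2 of the CTLH ligase, was lower by -0.20 (limma adjusted p = 0.0713), from 8.99 to 9.17 in wild type and from 8.77 to 8.91 in knockout, again without overlap. The CTLH subunits Rmnd5a and Maea rose, by 0.70 (SE 0.0854, limma adjusted p = 0.000467) and 0.40 (SE 0.0663, limma adjusted p = 0.00222), both in all 17 other settings. Of the rest, Ube2o, an E2 and ligase in one protein, differed by -0.12, Ube2u by -0.15 and Ube2cbp by -0.29, with limma adjusted p-values of 0.258, 0.142 and 0.151. After each of the 3 rescalings Ube2g1, Ube2h and Ube2s were called lower; median centring took the median over all genes from -0.04 to -0.11.

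**Figure D3:**
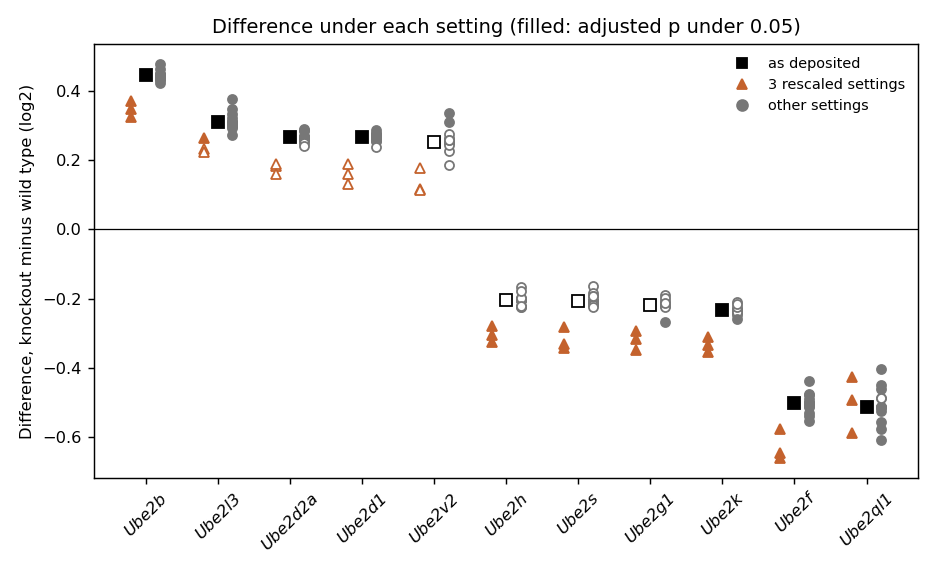
Difference of 11 E2 genes under the deposited values (squares), 3 rescaled settings (triangles: quantile normalization, median centring, cyclic loess) and the other settings (circles), on the log2 scale; filled symbols passed an adjusted p of 0.05. Ube2b and Ube2f are filled throughout, at 0.33 to 0.48 and -0.66 to -0.44, and the rescaled values of most genes lie below the deposited ones.

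Because a difference between 2 genes on the same array does not move with a shift of that whole array, related E2 genes were also compared pairwise within arrays. Of 10 pairs, 5 reached the smallest p that 4 against 4 arrays allow (exact two-sided permutation p = 0.0286). After Benjamini-Hochberg adjustment over the 10 pairs these had adjusted p = 0.0571, so no pair passed 0.05. No pair could have passed unless more than these 5 had reached the smallest p. Not passing is therefore a limit of the test and says little about any single pair. In these 5 all 4 knockout arrays lay on one side of all 4 wild type arrays. They were Ube2a against Ube2b (-0.49), Ube2g1 against Ube2g2 (-0.45), Ube2v1 against Ube2v2 (-0.41), Ube2q1 against Ube2q2 (-0.32) and Ube2d1 against Ube2d3 (0.21). Ube2g1 minus Ube2g2, for example, was -0.28, -0.42, -0.65 and -0.60 on the wild type arrays and -0.86, -0.86, -0.95 and -1.06 on the knockout arrays. The other 5 pairs gave exact permutation p-values of 0.0571 (Ube2d2a against Ube2d3), 0.0857 (Ube2r2 against Cdc34), 0.171 (Ube2l3 against Ube2l6), 0.343 (Ube2j2 against Ube2j1) and 0.4 (Ube2e2 against Ube2e3). No pair turned its direction with quantile normalization, with the mean of all features or with any array left out.

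**Figure D4:**
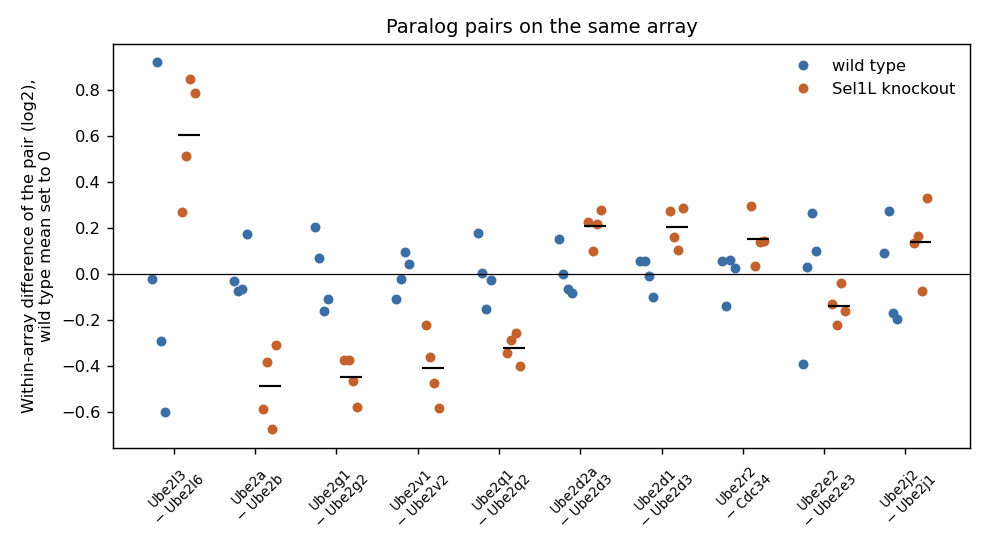
Within-array difference of the log2 levels of 10 pairs of related E2 genes, with the wild type mean of each pair set to 0; blue points are wild type arrays, orange points knockout arrays and bars the knockout mean. Knockout points lie apart from wild type points for Ube2a against Ube2b (-0.49), Ube2g1 against Ube2g2 (-0.45), Ube2v1 against Ube2v2 (-0.41), Ube2q1 against Ube2q2 (-0.32) and Ube2d1 against Ube2d3 (0.21).

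Elsewhere in the pathway, some single ligases changed by more than any E2 gene. Of 29 measured ligases that partner single E2s, 7 rose (24.1%, against 16.1% of all genes) and 0 fell (against 12.6% of all genes). The share called was thus 24.1%, against 28.7% of all genes. Their median absolute difference was 0.165, against 0.172 over the E2 genes. The median difference was 0.13 and the largest rise 0.97 (Birc2). After quantile normalization 7 rose and 2 fell, where 9.64% of all genes rose and 12.8% fell, and the median of these ligases was -0.01. Of 8 ER ligases 3 rose (37.5%, against 16.1% of all genes) and 0 fell. After quantile normalization or cyclic loess 1 rose and 2 fell, and after median centring 1 rose and 1 fell. Over all genes rises were then 9.64%, 10.6% and 12.0%, and falls 12.8%, 11.4% and 21.1%. Without Sel1L knockout replicate 3 or 4 or wild type replicate 1, 1 ER ligase rose, where 11.7% to 14.1% of all genes rose. Of 7 E1 genes 1 rose (14.3%, against 16.1% of all genes), Nae1, and 0 fell, with a median of 0.19. Of 9 measured ubiquitin-like genes 2 rose (22.2%, against 16.1% of all genes), Urm1 (0.75, SE 0.12, limma adjusted p = 0.00184) and Nedd8, and 0 fell. Of 22 deubiquitinases, which remove ubiquitin, 6 rose and 3 fell (40.9% called, against 28.7% of all genes), the falls being Otub2 (-0.69, SE 0.135), Usp10 (-0.51, SE 0.0865) and Uchl1 (-0.44, SE 0.0896), with limma adjusted p-values of 0.00531, 0.00255 and 0.00668. After quantile normalization or cyclic loess 1 rose and 5 fell, and after median centring 2 rose and 3 fell, beside the shares of all genes given for the ER ligases. Without Sel1L knockout replicate 1, 2 or 3, 3 deubiquitinases rose, where 11.7% to 13.7% of all genes rose. Among E2 genes of other names, Atg10, an autophagy E2, rose by 0.46 (SE 0.0793, limma adjusted p = 0.00266) and was called in all 17 other settings. Atg3, another autophagy E2, fell by 0.24 (limma adjusted p = 0.0276), a call lost without wild type replicate 2 or 4 or Sel1L knockout replicate 1, 2 or 3 and with the replicate block. Cdc34, the classical E2 of SCF ligases, differed by -0.25 and just missed the threshold.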

How the data were processed

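The authors normalized the arrays with RMA, per the submitters' processing notes. Nothing states the log base; the range of the deposited values, and RMA itself, point to log2. The sources used here do not give the RMA version, the chip definition or a genome build. Of 35556 features, the platform annotation listed 1 symbol for 21218, several for 1881 and none for 12457. All 29 E2 genes were found in RefSeq by Entrez identifier, with 0 symbols changed. Genotype was fitted over all 18820 genes with limma 3.58.1 in R 4.3.3 (lmFit, eBayes, 6 residual degrees of freedom), with no filter on dim genes. The step was tested on simulated data. Paralog pairs were compared by exact permutation over arrays.

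The values on every array are given for called E2 genes with a difference of at least 0.4 and for Ube2g1, Ube2j2 and Ube2l6, and were extended to other called genes, Ube2a, Ube2n and Rnf7 after the values were seen. In other lists up to 3 members with the smallest p were to be named; partners of single E2s were named beyond that after their values were seen. The members and lists were chosen with earlier results of these data known.

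Alternatives were quantile normalization, median centring, cyclic loess, only genes above the median mean, the mean of all features, every feature tested by itself, trend and robust variance, array weights, the replicate number as a block, and each array left out. Promoter sequences are from RefSeq (GRCm38.p6). Figures were drawn with matplotlib 3.10.9. The number of arrays limits the precision.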

Additional observations from a re-analysis of the deposited data

Results flagged for a closer look

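On 5 of 78 groups of 4 arrays, over the E2 genes and the pairs, 1 array lay far from the other 3; chance gives about 1 in 20. These were Ube2d2a on wild type replicate 1 (9.44, next 9.37), Ube2s on wild type replicate 3 (8.26, next 8.17), Ube2v1 on Sel1L knockout replicate 3 (10.05, next 10.14), Ube2z on Sel1L knockout replicate 4 (9.91, next 9.87) and Ube2r2 minus Cdc34 on wild type replicate 2 (0.82, next 0.99). Each of the gaps in the 4 single genes was under 0.1 on the log2 scale. Outside the 29 genes, a feature that names both Nkiras1 and Ube2e1, and so was not tested, was higher on all 4 knockout arrays, by 0.31 (7.22 ± 0.0798 to 7.53 ± 0.0867, SD, n = 4 each).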

How the results depend on the processing

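Ube2b and Ube2f were called in the same direction under all 17 alternatives, and no called E2 gene changed sign. Rises and falls among the E2 genes numbered 4 and 3 as deposited and 2 and 7 after quantile normalization. They numbered 1 and 7 after median centring and 1 and 9 after cyclic loess. Among genes above the median mean, 5 E2 genes rose and 5 fell (20.0% each), against 32.02% and 12.36% of all such genes. With trend and robust variance 5 rose (17.24%, against 17.17% of all genes) and 6 fell (20.69%, against 12.92%). With the replicate block 2 rose and 2 fell (6.90% each), against 14.24% and 10.62% of all genes. The median difference over the E2 genes was -0.04 as deposited, -0.13 after quantile normalization, -0.12 after median centring and -0.11 after cyclic loess. It was 0.0049 among genes above the median mean, against 0.13 over all such genes. With array weights it was -0.065, against -0.037 over all genes. Rises made up 56.0% of all calls as deposited, 42.9% after quantile normalization, 36.3% after median centring, 48.1% after cyclic loess and 72.2% among genes above the median mean. Leaving out each array in turn gave 2 to 5 rises (6.90% to 17.2%) and 1 to 3 falls (3.45% to 10.3%) among the E2 genes. Over all genes rises were then 11.7% to 15.2% and falls 8.06% to 12.6%. The E2 median was -0.076 to -0.019, against -0.039 to -0.027 over all genes. Without Sel1L knockout replicate 4, 2 rises were left, and without Sel1L knockout replicate 1 or 2, 1 fall. For single genes, 22 calls of single genes were lost and 27 gained over the alternatives, counted by gene and setting.

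Signs turned for 8 genes, none called in either setting. After quantile normalization Ube2d3 was at -0.0091, Ube2e2 at -0.11, Ube2j2 at -0.13, Ube2n at -0.16 and Ube2w at -0.055. After median centring Ube2d3 was at -0.016, Ube2dnl2 at -0.064, Ube2e2 at -0.023, Ube2j2 at -0.038 and Ube2n at -0.072. After cyclic loess Ube2e2 was at -0.092, Ube2j2 at -0.11, Ube2n at -0.14, Ube2t at 0.011 and Ube2w at -0.024. Ube2n was at -0.0063 with the mean of its features and at -0.011 with array weights. With arrays left out, Ube2a ranged from -0.10 to 0.0075, Ube2dnl2 from -0.080 to 0.11, Ube2e2 from -0.039 to 0.14, Ube2j2 from -0.025 to 0.12 and Ube2n from -0.036 to 0.036. The cause of these turns was not tested.

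Whether arrays with the same replicate number belong together is not known. Deviations of same-numbered arrays correlated at 0.222, 0.153, -0.273 and -0.0195, and not every array correlated best with its own number. So few correlations cannot decide whether arrays were paired or shared a batch. With the replicate block Ube2b, Ube2l3, Ube2f and Ube2ql1 stayed called, and the calls of Ube2d1, Ube2d2a and Ube2k were lost. The dimmest 4 genes are limited by signal over background.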
